A study of Arabidopsis thaliana with 8 samples.

Results

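The 10 dehydrin genes of Arabidopsis thaliana were followed in seedlings given the stress hormone abscisic acid (ABA) or either of a pair of its breakdown products. They were looked up by locus among the 32678 gene rows of the deposited tables, and all 10 were found. Dehydrins are very hydrophilic, mostly unfolded proteins of the late embryogenesis abundant (LEA) class, which accumulate in drying seeds and in leaves and roots short of water or in the cold. They are thought to shield membranes and other proteins, and their signature is the K-segment, a short lysine-rich stretch that forms a helix on membranes. Many dehydrin genes are switched on through ABA-responsive elements (ABRE), bound by bZIP factors such as ABF3 and ABI5, or through dehydration-responsive elements (DRE), bound by CBF and DREB2 factors.

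All groups were whole wild-type seedlings of the Columbia accession, 10 days old, grown at 22 °C in constant light on MS plates, so no group carried a mutation or transgene. Treatment was mock, or 3 h of ABA, of phaseic acid, called PA, or of dihydrophaseic acid, called DPA, each at 50 μM, with 2 biological replicates in each of the 4 groups, 8 libraries in all. PA is oxidised ABA with a second ring closed onto the oxidised carbon, and in DPA the ring ketone of PA has become a hydroxyl. The study thus allows the question of how far the dehydrin response to ABA is shared by PA and DPA at the same dose and time. The values are normalized counts, that is reads divided by a size factor of the library. The authors deposited their mean per group, and the reads of both libraries were recovered from each mean. Libraries are written below as a pair, the one of higher size factor first, because their replicate numbers could not be told.

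Gene reads per library ran from 11468318 to 15934091. The mock pair lay farthest apart, with an SD of the log2 difference of 0.336 over 16418 genes with a mean of at least 50, against 0.218 to 0.241 in the treated pairs. All 13 markers of root, leaf, guard cell and seed had reads in both libraries of every group. The summed guard cell markers ran from 1119 to 1296 normalized counts in mock and from 749.8 to 877 with ABA, and the seed markers from 667 to 1609 and from 1647 to 2392. With ABA 3 of the 13 were called lower in the authors' deposited table (PYK10 of root, KAT1 and MYB60 of guard cells) and OLEO1 of seed was called higher (adjusted p under 0.05, DESeq). Of the 24069 genes tested there, 5.12% were called lower and 10.3% higher. SCR, SHR and WER of root, FAMA of guard cells and all leaf markers were not called. The seed sums were mostly CRA1, which was not called (log2 fold change 0.79, adjusted p = 0.508, DESeq). SESA1 of seed had a log2 fold change of -1.42 and was not called (adjusted p = 0.911, DESeq). Its mock libraries stood at 3.07 and 93.8 normalized counts. Whether a shift in tissue composition has a part in the dehydrin values was not tested, and in whole seedlings fewer cells of a type and less RNA per cell cannot be told apart.

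The dehydrins differ in build. From the RefSeq annotation of TAIR10.1, the proteins run from 98 residues in HIRD11 to 265 in COR47. COR47, ERD10 and ERD14, called the acidic branch below, carry 3, 2 and 2 K-segment cores and a run of 7 serines. Lysine and glutamate make up 36.6%, 35.8% and 39.5% of their residues, a share that does not measure acidity. These traits are not theirs alone. XERO1 and AT2G21490 also have a run of 7 serines, and RAB18, XERO1 and AT4G38410 have 2 cores. In AT4G38410 lysine and glutamate make up 37.4%. It is 28.8% to 36.1% identical to the acidic branch, whose members are 48.3% to 63.5% identical to each other. COR47 and ERD10 are 63.5% identical and lie 1029 bases apart on the same strand of chromosome 1. RAB18 matched the Y-segment pattern searched, another short motif of dehydrins, at 2 places, and glycine makes up 33.9% of it. No other member matched that Y-segment pattern. No looser one was tried, so variants of the motif could have been missed. LTI30 and HIRD11 are rich in histidine, at 13.5% and 13.3%, a residue that binds metal ions in such proteins. LTI30 had 1 K-segment core by the pattern used and 6 by a looser pattern chosen after the data were seen, and AT4G39130 had 0 and 1. LTI30 and XERO1 are neighbours on chromosome 3, 313 bases apart. No stretch of 50 bases, the read length, was shared by the exons of any of the 45 pairs of members on either strand.

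In the 250 bases before the annotated transcript start, the ABRE core ACGTG and the DRE core CCGAC were searched on both strands, and a site read on both strands was counted once. Of 27443 promoters of this length, 22.9% held at least 1 ABRE core and 1.1% at least 3, while 12% held a DRE core and 0.182% at least 3. RAB18 held 3 ABRE cores, AT4G38410 held 2, and ERD14, XERO1, HIRD11, AT2G21490 and AT4G39130 held 1 each. LTI30 held 3 DRE cores and AT2G21490 held 1. The windows of COR47 and ERD10 held neither core. The coding sequence of COR47 begins 1209 bases after its annotated start, so its window lies far from it. For ERD10 the distance is 499 bases. The 2 kinds of core shared no base. RAB18's window lies wholly in the first exon of a divergent neighbour, AT5G66410, so only its sites are shown.

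**Figure D1:**
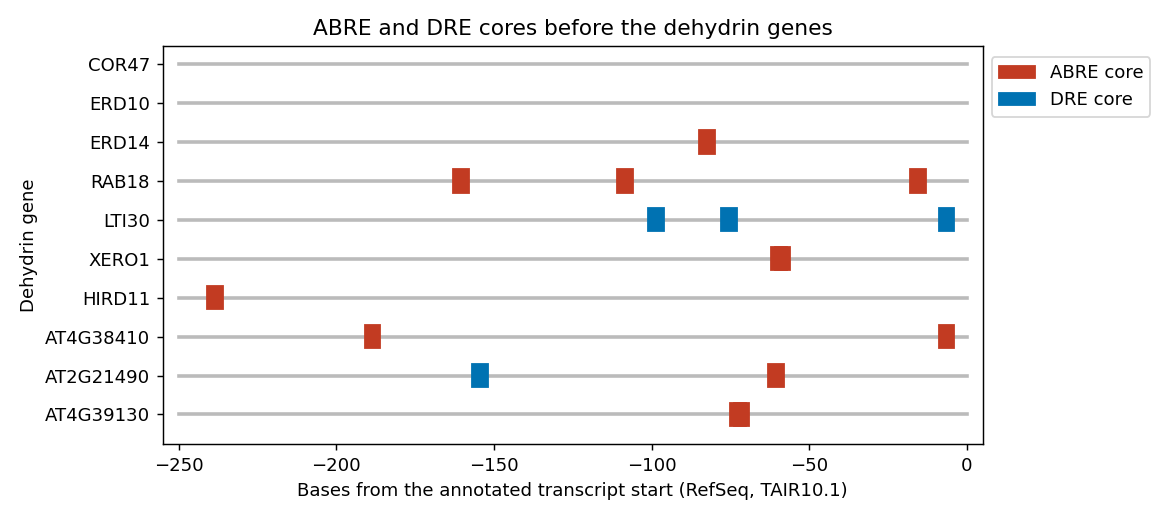
ABRE and DRE cores in the 250 bases before each dehydrin gene, by distance in bases from the annotated transcript start (RefSeq, TAIR10.1). Each grey line is a gene and each coloured block a core on either strand. RAB18 has 3 ABRE cores, LTI30 has 3 DRE cores, and COR47 and ERD10 have neither in this window.

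Sequences of 4 members are given: RAB18 and LTI30 held the most cores of each kind, XERO1 is the neighbour of LTI30, and HIRD11 changed least of the 8 genes raised by ABA. They were read from TAIR10.1 along each gene's strand, with ABRE and DRE cores in capitals. For RAB18 (minus strand) the sites are chr5:26519596-26519620, chr5:26519544-26519568 and chr5:26519451-26519475. For LTI30 (plus strand) the stretch is chr3:18940429-18940642, which leaves out 36 bases in an exon of the neighbouring AT3G50960. For its neighbour XERO1 (plus strand) it is chr3:18941675-18941924, and for HIRD11 (minus strand) chr1:20310851-20311100.
RAB18 site farthest from the start: acgacgatgtACGTGtgtatgaaaa
RAB18 middle site: gaggagcattACGTGtcctgttagc
RAB18 site nearest the start: ttgatatgaaCACGTacttggtatc
LTI30: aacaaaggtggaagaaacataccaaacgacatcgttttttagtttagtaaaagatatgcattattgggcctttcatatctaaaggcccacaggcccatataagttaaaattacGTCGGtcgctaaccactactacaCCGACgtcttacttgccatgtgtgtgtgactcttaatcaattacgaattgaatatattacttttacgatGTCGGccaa
XERO1: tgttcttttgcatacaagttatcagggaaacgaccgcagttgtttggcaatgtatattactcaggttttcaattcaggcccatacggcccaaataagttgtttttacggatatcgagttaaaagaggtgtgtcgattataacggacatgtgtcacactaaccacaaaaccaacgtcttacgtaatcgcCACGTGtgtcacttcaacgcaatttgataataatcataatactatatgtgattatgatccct
HIRD11: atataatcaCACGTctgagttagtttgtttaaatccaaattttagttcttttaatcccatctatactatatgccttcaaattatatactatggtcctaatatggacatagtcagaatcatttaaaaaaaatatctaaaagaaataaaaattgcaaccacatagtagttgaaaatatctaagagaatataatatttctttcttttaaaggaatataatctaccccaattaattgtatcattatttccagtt

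In 1000 bases before the coding start, a window chosen after the data were seen that takes in the transcript leader, LTI30 again held 3 DRE cores, a number reached by 3.1% of 27443 genes. AT4G38410, which ABA did not raise, held 4 DRE cores, reached by 0.867%, and 3 ABRE cores. RAB18 and ERD14 held 4 ABRE cores each, reached by 2.62%. COR47 held 1 core of each kind and ERD10 held 2 ABRE cores and 1 DRE core, numbers reached by 22.2% to 54.2%. For COR47 this window lies wholly after the annotated start. A match describes letters and not binding.

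ABA raised 8 of the 10 dehydrins and lowered none in the authors' deposited table at an adjusted p (DESeq) under 0.05, where 10.3% of the 24069 genes tested were called higher and 5.12% lower. None was lower at an unadjusted p under 0.05 either, nor in the limma fit described below. The median log2 fold change of the 10 was 3.16, against -0.01 over all genes tested. LTI30, a cold- and ABA-induced dehydrin that binds membranes, moved most. Its normalized counts were 86.8 and 46.9 in mock and 10368 and 12014 with ABA. In the authors' deposited table this was a log2 fold change of 7.39 (adjusted p = 1.00e-138, DESeq). RAB18, the classic ABA-responsive dehydrin also found in guard cells, went from 205 and 264 to 11451 and 8745. Its log2 fold change in the authors' deposited table was 5.43 (adjusted p = 3.30e-30, DESeq). Between the ABA libraries RAB18 was higher in the library of higher size factor, while LTI30, COR47, ERD10 and ERD14 were higher in the other.

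The acidic branch rose from levels that were already high. ERD10, an acidic dehydrin that rises early in drying leaves, went from 1803 and 1789 to 33084 and 37210. Its neighbour COR47, a cold-regulated dehydrin, went from 3743 and 3650 to 42069 and 46913.5. ERD14, the third acidic member and a calcium-binding phosphoprotein, went from 3604 and 4034 to 16802 and 18234. No ABA library of these genes lay within 4-fold of a mock library. In the authors' deposited table the log2 fold changes were 4.29 for ERD10, 3.59 for COR47 and 2.20 for ERD14, the largest adjusted p being 2.64e-62 (DESeq).

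The other risen members were either barely expressed or changed little. XERO1, the small neighbour of LTI30, had 3 and 5 reads in mock and 53 and 24 with ABA, that is 3.06 and 5.45 against 46.1 and 29.4 normalized counts. Its log2 fold change in the authors' deposited table was 3.15 (adjusted p = 8.19e-05, DESeq). AT2G21490, a dehydrin little described in seedlings, went from 15.3 and 6.54 to 106 and 91.9 normalized counts, a log2 fold change of 3.18 in the authors' deposited table (adjusted p = 2.44e-11, DESeq). HIRD11, the small histidine-rich dehydrin, went from 7275 and 7787 to 10743 and 11438. All 3 genes had ABA libraries above both mock libraries, but for HIRD11 the log2 fold change in the authors' deposited table was only 0.56 (adjusted p = 0.000123, DESeq).

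AT4G38410 and AT4G39130 stayed at the limit of detection and passed no test. AT4G38410 had 1 to 7 reads in each of the 8 libraries. AT4G39130 had 1 and 13 reads in the mock libraries. With ABA it had 11 and 8, with PA 21 and 7, and with DPA 2 and 5, so its mock libraries alone span most of its range. At these counts a change of a few fold in either gene was not detectable.

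**Figure D2:**
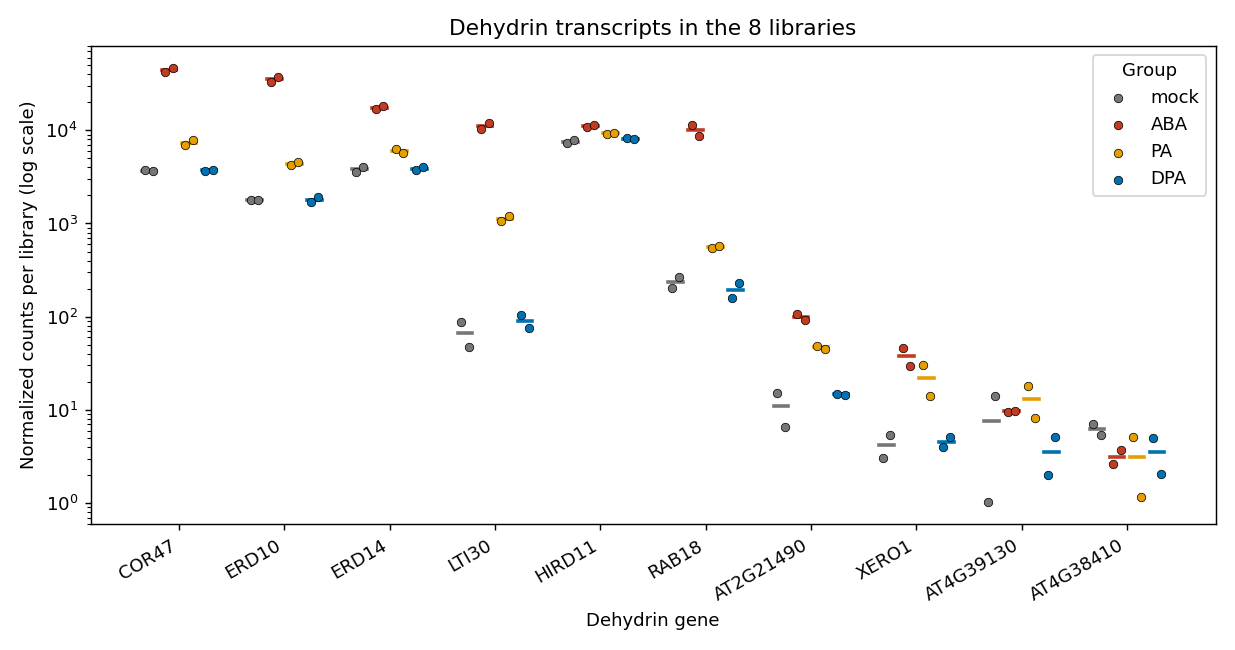
Normalized counts (log scale) of the 10 dehydrins, 1 point per library and a bar at the mean of the 2 libraries of a group. The ABA points lie above the mock points for 8 genes, the PA points of these genes lie above mock and, except for 1 of XERO1, below both ABA points, and the DPA points lie near mock.

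PA raised 6 of the 10 in the authors' deposited table and lowered none, where 1.18% of 23985 genes tested were called higher and 0.146% lower (DESeq). None was lower at an unadjusted p under 0.05 there or in limma. The median log2 fold change of the 10 was 1.13, against -0.01 over all genes tested. LTI30 again moved most, to 1055 and 1189 normalized counts. In the authors' deposited table its log2 fold change was 4.07 (adjusted p = 7.38e-81, DESeq), which ranked 1 by p among all 23985 genes tested and 15 by size among the 283 called higher. The acidic members rose less, to 4265 and 4517 for ERD10, 6865 and 7772 for COR47 and 6281 and 5766 for ERD14. Their log2 fold changes in the authors' deposited table were 1.29, 0.99 and 0.66 (adjusted p = 1.04e-19, 6.75e-12 and 2.20e-05, DESeq). RAB18, second to LTI30 with ABA, reached only 552 and 575 with PA, a log2 fold change of 1.26 in the authors' deposited table (adjusted p = 9.30e-10, DESeq).

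AT2G21490 reached 48.8 and 45.6 normalized counts with PA, a log2 fold change of 2.11 in the authors' deposited table (adjusted p = 0.0103, DESeq). XERO1 had 29.97 and 14.0 and HIRD11 9171 and 9357 normalized counts, and neither was called. For both genes the PA libraries nevertheless lay above both mock libraries, with log2 fold changes of 2.37 and 0.30 in the authors' deposited table (adjusted p = 0.581 and 0.567, unadjusted p = 0.0162 and 0.0153, DESeq). Calls for PA depended on single libraries. In the limma fit to all recovered libraries, 6 of the 8 fitted genes were called higher, where 361 of 19617 genes were. Without the PA library of higher size factor, ERD14, RAB18 and AT2G21490 lost the call. That fit leaves 1 PA library, and fewer genes were called in it over all genes too. The log2 fold change was then 0.596 for ERD14, against 0.658 with all libraries, and 1.301 for RAB18, against 1.272.

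No dehydrin was called with DPA in the authors' deposited table, where 0.00834% of 23970 genes tested were called higher, 2 genes, and 0.00417% lower, 1 gene (DESeq). None of the 10 had an unadjusted p under 0.05 there, and all adjusted p were 1. The limma fit called none of all 19617 genes with DPA, and so none of the 8 fitted members. None of the 8 had an unadjusted p under 0.05 there, where 1081 of 19617 genes had (limma). With DPA the normalized counts were 105 and 75.4 for LTI30, 159 and 231 for RAB18, 3675 and 3773 for COR47, and 1701 and 1914 for ERD10. HIRD11 was the only fitted member whose DPA libraries, 8181 and 8074, both lay above its mock libraries. The authors' deposited table gives it a log2 fold change of 0.11. The limma 95% intervals of the DPA to mock ratio ran from 0.875 to 1.15 for ERD10 and from 0.873 to 1.16 for COR47. For LTI30 the interval was 0.940 to 2.05, for XERO1 0.498 to 2.36 and for AT2G21490 0.814 to 2.47. A doubling lies within the intervals of LTI30, XERO1 and AT2G21490, but not within those of ERD10 and COR47.

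The 3 compounds were then compared directly in 3 pairs, with limma across all 8 libraries and Benjamini-Hochberg adjustment over 19617 genes within each pair. The 8 members whose mean reached 10 normalized counts entered this fit. PA gave lower levels than ABA for 6 of them, where 12.6% of genes were lower and 7.34% higher, and no member was higher, at an unadjusted p under 0.05 either (limma). Under upper-quartile scaling the balance over all genes turned, with 2433 genes higher and 1933 lower with PA against 1440 and 2469, while 5 members were lower and none higher. RAB18 showed the widest gap: ABA gave 17.7 times the PA level (95% interval 13.2 to 23.8, adjusted p = 1.89e-06, limma). The ratio was 9.96 for LTI30 (6.75 to 14.7), 7.99 for ERD10 (6.96 to 9.18), 6.08 for COR47 (5.27 to 7.01) and 2.91 for ERD14 (2.52 to 3.36). HIRD11 differed by a ratio of only 1.20 (1.06 to 1.36, adjusted p = 0.0488, limma), and lost the call under 10 alternative settings. XERO1 and AT2G21490 missed the threshold (adjusted p = 0.305 and 0.0688, limma), with ratios of ABA to PA of 1.75 (0.807 to 3.81) and 2.07 (1.19 to 3.60). XERO1's higher PA library, at 29.97, lay above its lower ABA library, at 29.4.

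DPA, which differs from PA by the reduced ketone, gave lower levels than PA for 6 of the 8, where 2.44% of genes were lower and 1.39% higher, and none was higher, at an unadjusted p under 0.05 either (limma). The PA to DPA ratio was 12.5 for LTI30 (95% interval 8.45 to 18.4, adjusted p = 0.000102, limma), 2.93 for RAB18 (2.18 to 3.93), 2.43 for ERD10 (2.12 to 2.79), 1.96 for COR47 (1.70 to 2.26) and 1.56 for ERD14 (1.35 to 1.797). The call of ERD14 (adjusted p = 0.00645, limma) was lost without the PA or the DPA library of higher size factor. Its log2 difference was then -0.58 in either fit, against -0.64. AT2G21490 differed by a ratio of 3.07 (1.76 to 5.34, adjusted p = 0.0406, limma), a call lost when any ABA, PA or DPA library was left out. XERO1 missed the threshold at a ratio of 3.89 (1.79 to 8.45, adjusted p = 0.0652, limma), as did HIRD11 at 1.14 (1.01 to 1.29, adjusted p = 0.236, limma). Against ABA, DPA gave lower levels of all 8 fitted members, where 18.6% of genes were lower and 15.5% higher, 3647 and 3045 genes. Under upper-quartile scaling 2964 genes were lower and 4237 higher, and the 8 members were lower there too. Their log2 differences ran from -0.45 for HIRD11 to -6.96 for LTI30, with adjusted p of at most 0.00214 (limma).

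**Figure D3:**
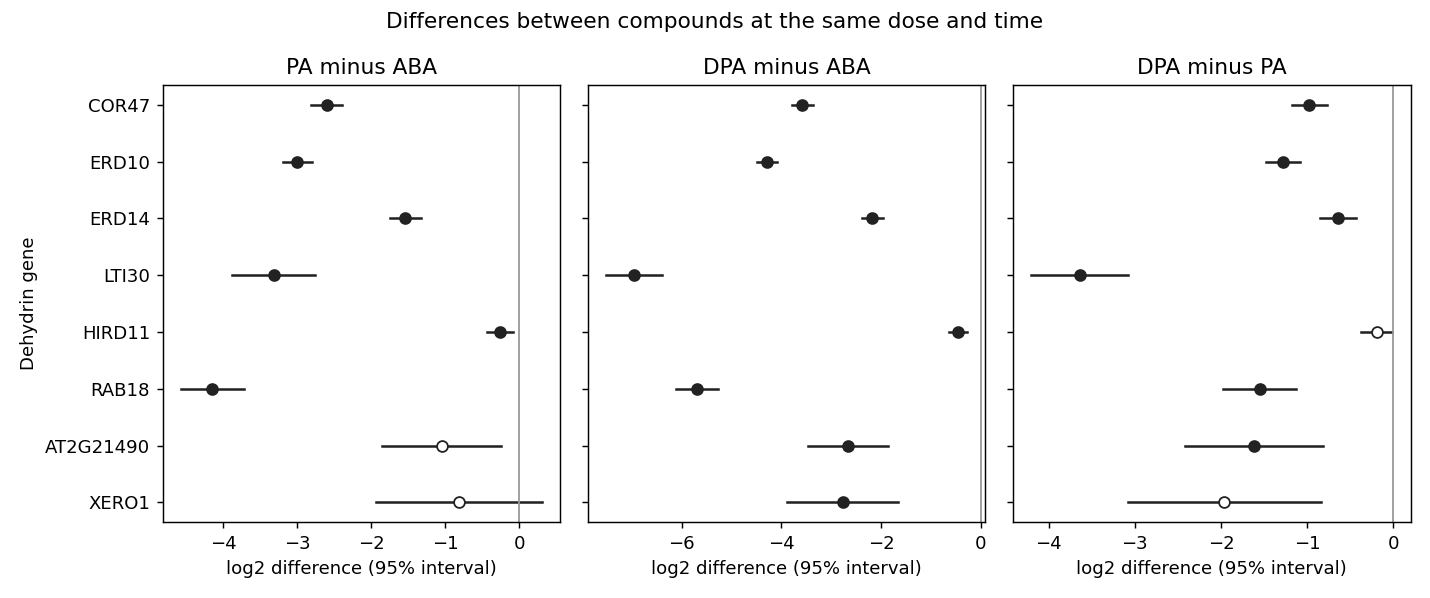
Log2 differences between compounds for the 8 fitted dehydrins, with 95% intervals from limma; filled points had an adjusted p under 0.05 and the panels have their own scales. RAB18 lies farthest from 0 for PA minus ABA and LTI30 for both comparisons with DPA.

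As a description, the rise above mock with PA was set against the rise with ABA, the range being over the PA libraries. PA gave 3.34% of the ABA rise for RAB18 (3.22% to 3.45%), the lowest share of the 8 genes. The share was 7.78% for ERD10, 8.88% for COR47 (7.77% to 9.99%), 9.48% for LTI30 and 16.1% for ERD14 (14.2% to 18%). AT2G21490 stood at 41.2%, HIRD11 at 48.7% and XERO1 at 53% (29.2% to 76.8%), AT2G21490 and XERO1 having few reads and HIRD11 a small fold change with either compound.

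Summed over the 10 genes, dehydrin transcripts made up 0.126% to 0.128% of all normalized gene counts in mock and 0.130% to 0.135% with DPA. Their share was 0.212% to 0.217% with PA and 0.900% to 0.959% with ABA. In normalized counts, the mock libraries summed to 16745 and 17603, the DPA libraries to 17555 and 18131, the PA libraries to 28292.5 and 29245, and the ABA libraries to 124681 and 134690. The mean sum was 7.55 times that of mock with ABA, 1.68 times with PA and 1.04 times with DPA. In summed normalized counts the pairs of libraries overlapped only between mock and DPA. In the share of all gene counts no pairs overlapped.

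Divided by exon length, so that genes can be compared, HIRD11 held 52.0% of the dehydrin counts per kilobase in mock and 53.7% with DPA. This member, least changed of the 8 genes raised by ABA, still held 39.5% with PA, but 11.5% with ABA. ERD14 was next in mock at 24.8%, then COR47 at 12.3% and ERD10 at 8.50%, while RAB18 had 1.65% and LTI30 0.535%. With ABA the order was ERD10 at 25.0% (24.3% to 25.6%), COR47 at 22.1% (21.6% to 22.6%), ERD14 at 17.1%, LTI30 at 13.3% (12.8% to 13.9%), HIRD11 at 11.5% and RAB18 at 10.8% (8.98% to 12.5%). HIRD11 and RAB18 were not separated there, since the libraries of RAB18 lie on both sides of HIRD11. Per kilobase of coding sequence the order with ABA was another: COR47 came first at 26.9%, then ERD10 at 21.7%, HIRD11 at 18.0%, ERD14 at 15.2%, LTI30 at 9.28% and RAB18 at 8.75%. On that scale HIRD11 lay above RAB18 in both libraries. Among 27998 genes ranked by level per kilobase of exon, ERD10 moved from 1144 in mock to 21 with ABA, LTI30 from 13127 to 70 and RAB18 from 6789 to 91, while HIRD11 moved from 117 to 82.

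**Figure D4:**
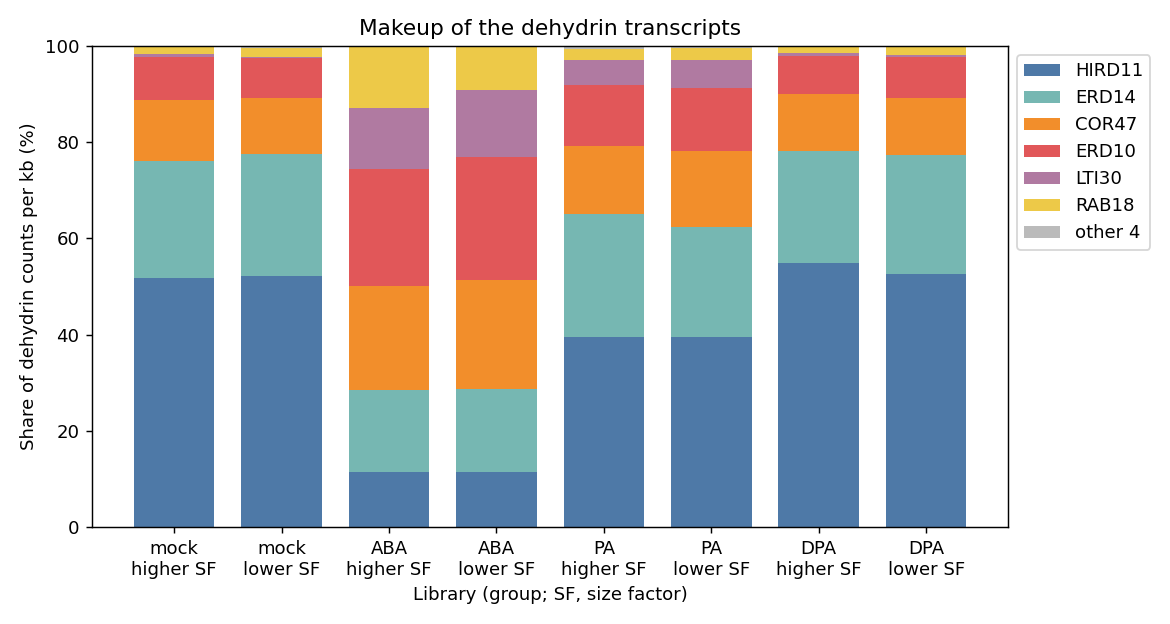
Share (%) of each dehydrin in the summed normalized counts per kilobase of exon of the 10 genes, 1 bar per library (SF, size factor). HIRD11 fills 52.0% of the mock bars and 11.5% of the ABA bars, where ERD10, COR47, LTI30 and RAB18 widen.

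The factors that bind the promoter elements were counted from lists of known genes. Of 5 bZIP factors of ABRE elements, 4 rose with ABA in the authors' deposited table and 2 with PA, ABF2 and ABF3, with none lower. Of all genes tested there, 10.3% were called higher with ABA, 1.18% with PA and 0.00834% with DPA. None was called with DPA, nor was any at an unadjusted p under 0.05 (DESeq). ABI5, ABF3 and ABF2 rose by log2 fold changes of 3.22, 2.92 and 2.32 with ABA in the authors' deposited table, and ABF1 had 0.39 (adjusted p = 0.165, DESeq). Of 7 DREB factors, 3 rose with ABA in the authors' deposited table and none with PA, where 1 had an unadjusted p under 0.05 (DESeq). With DPA none of the 6 tested was called or had an unadjusted p under 0.05 in the authors' deposited table. Median log2 fold changes were 2.32, 0.80 and -0.02 for the bZIP factors with ABA, PA and DPA. For the 6 DREB factors that had reads in mock they were 1.60, 0.98 and -0.16. In the authors' deposited table the log2 fold changes with ABA were 3.60 for CBF3 and 3.06 for DREB2A. CBF3 had few reads, with means of 2.11 normalized counts in mock and 25.6 with ABA. CBF1, CBF2, DREB2B and DREB2C were not called with ABA (adjusted p of at least 0.0748, DESeq). CBF4 was listed at 0 in mock and at 19.1 normalized counts with ABA. Of 13 other LEA and stress proteins, 13 rose with ABA, 10 with PA and none with DPA in the authors' deposited table, with median log2 fold changes of 4.59, 2.28 and 0.03. Beside these, the medians of the dehydrins were 3.16, 1.13 and 0.02, and those of all genes tested -0.01, -0.01 and 0.002. KIN1, LEA7 and LEA4-5 rose most with ABA, with log2 fold changes of 8.13, 8.07 and 7.61 in the authors' deposited table.

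The genes most like each of 3 dehydrins were found by the Euclidean distance between log2(deposited group mean + 1) over the 4 groups, centred on each gene's own mean, among 16417 genes with a mean of at least 50. Nearest to LTI30 was LEA4-5, a LEA protein, at a distance of 0.421, followed by BGLU24, a beta-glucosidase, at 0.435 and HAI3, an ABA-induced protein phosphatase of the PP2C type, at 0.662. For RAB18 the nearest were AT2G41190, an amino acid transporter family member, at 0.202, the sugar transporter SWEET4 at 0.218 and AT3G03341 at 0.384. COR47 was nearest to AT2G36780, a UDP-glycosyltransferase family member, at 0.0634, AT2G35070 at 0.159 and LEA14, another LEA protein, at 0.176. In the authors' deposited table the log2 fold change of AT2G36780 with ABA was 3.60 against 3.59 for COR47, from a mock mean of only 25.4.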

How the data were processed

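Polyadenylated RNA of 8 seedling libraries was sequenced as single reads of 50 bases, per the labels' protocols, and strand marking is not stated. TAIR10, HTSeq, TopHat 1.4.1 and DESeq 1.8.3 are named in the submitters' processing notes without their roles. The deposited group means are a signal (normalized counts), the deposited fold change is their ratio, and the deposited p-value and adjusted p are credited to DESeq, after the submitters' processing notes. Of 32683 rows, 5 name no gene and stayed out. Reads in no feature took 48.2% to 48.5% of the total and ambiguous reads 0.278% to 0.315%.

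A group mean adds the whole reads of 2 libraries, each over its size factor, so the reads of both were recovered, with 100% of values giving a single split. The size factors were 0.979 and 0.917 (mock), 1.15 and 0.816 (ABA treated), 1.17 and 0.855 (PA treated), 1.00 and 0.968 (DPA treated). Recovery and fit were tested on simulated data.

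Calls against mock are the deposited adjusted p under 0.05. Compounds were compared with limma 3.58.1 (R 4.3.3, trend) on log2(normalized counts + 1), with genes of mean at least 10, 4 groups in 1 fit, 4 residual and 5.37 prior degrees of freedom. An exact permutation test of 2 against 2 libraries cannot go below p = 0.333. Log2 fold changes were computed from the deposited ratio. Named genes are all 10 dehydrins, in each list the 3 most changed with ABA and any that went against its list, and the 3 genes nearest to COR47, RAB18 and LTI30.

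Members, lists and tests were chosen with earlier results of these data known. The PA table describes AT2G21490 as a linker histone and the ABA table as a dehydrin; it was matched by locus, and its mock mean was the same in both. Gene positions, exons and promoters came from RefSeq (TAIR10.1), and protein features from its coding sequences translated here. RAB18 overlaps AT5G66410 on the other strand by 11 bases. As strand marking is not stated, whether reads of the 2 genes can be told apart there is not known. Alternatives were the other test, scaling, pseudocounts, minimum means, thresholds, fits of the groups compared only and fits without each library.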

Additional observations from a re-analysis of the deposited data

How the results depend on the processing

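No paired analysis was possible because the deposited columns carry no replicate numbers and the recovered libraries could not be tied to them. Over 54 gene results and 712 alternatives, 670 values kept their direction and side of the threshold, 27 lost the call, 7 gained it and 8 changed sign. The number of dehydrins raised by PA ran from 3 to 7 over the fits without 1 library. Fits without 1 library assume that the lone library of a group varies like the others. Over them the number of dehydrins raised by ABA stayed the same, as did the number lower with DPA than with ABA. The numbers lower with PA than with ABA and lower with DPA than with PA varied, as did those over all genes. The normal test of the difference of deposited log2 fold changes called 5 dehydrins lower with DPA than with ABA against 8 in limma: HIRD11 and AT2G21490 had adjusted p of 0.0877 and 0.0743, and XERO1 had no value because its p with DPA is listed as 1. The 8 sign changes were all of DPA against mock without 1 library, none was called, and the lowest adjusted p (limma) was 0.823. Over those fits the log2 fold change with DPA ran from -0.00831 to 0.0296 for COR47, -0.0787 to 0.0920 for ERD10, -0.0603 to 0.102 for ERD14, -0.218 to 0.449 for XERO1 and -0.0548 to 1.06 for AT2G21490. The call of RAB18 with PA was lost without either PA library (adjusted p = 0.0849 and 0.106, limma), at log2 fold changes of 1.301 and 1.243. That of AT2G21490 was lost without either PA library (0.152 and 0.139) and in the fit of PA and mock only (0.0832), at log2 fold changes of 2.07, 2.17 and 2.12. The PA to ABA difference of HIRD11 was -0.26 and became -0.16 under upper-quartile scaling (adjusted p = 0.175, limma), where the median difference of all genes was 0.0854, against -0.00863. The cause of these lost calls was not tested. An adjusted p under 0.01 for differences between compounds was added after the data were seen. With 2 libraries a group, and under 60 reads a library for XERO1, changes of a few fold in the rarest members could be missed.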
